A study of Gallus gallus with 45 samples.

Results

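The genes followed here were the apolipoprotein and intestinal fat binding genes APOA1, APOA4, APOB, MTTP, FABP1, FABP2, FABP5, FABP6 and RBP2. They were listed by name, and a probe was taken where the RefSeq identifier of the array design pointed to a listed gene. This gave 16 of 43603 probes, for 7 of the 9 genes. APOB had 7 probes, APOA1 had 3, MTTP had 2, and APOA4, FABP1, FABP2 and FABP5 had 1 each. No probe was matched to FABP6 or RBP2, which were not analysed here. All 16 probes passed the filter on dim probes, which 25527 of the 43603 passed.

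The study compared whole tissue of the jejunum between the genetically distinct broiler lines Y and X, which received no treatment, were kept in separate pens and could eat and drink freely. There were 7 arrays of line Y and 7 of line X on day 0, 7 of line Y and 8 of line X on day 4, and 8 of line Y and 8 of line X on day 16 after hatch. Each array held the RNA of 1 pool of 10 birds, labelled with the dye Cy3, so the spread between arrays is that between pools and not between birds. For the pools numbered 2 to 8 of line Y the titles and the age label disagreed, and the age label, day 0, was used. The pools of line X on day 0 carry the same numbers, and FABP3, which lay at 12.37 or above on day 4 in both lines, lay between 9.21 and 9.76 in these pools of line Y and between 9.18 and 9.62 in those of line X. Every value given for line Y on day 0 rests on this label. The arrays of each group filled a separate slide, and group and slide cannot be told apart.

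Dietary fat is broken down in the lumen of the jejunum, taken up by the absorptive cells (enterocytes), carried inside them by small fatty acid binding proteins and rebuilt into triglyceride. MTTP, the microsomal triglyceride transfer protein, loads that triglyceride on to APOB, the large structural protein of the secreted lipoprotein, and APOA1 and APOA4 are smaller apolipoproteins that join its surface. In chickens the intestinal lipoproteins leave through the portal vein and are called portomicrons, and the yolk is the main source of fat around hatch. RBP2 binds retinol (vitamin A) in the enterocyte, and FABP6 binds bile acids in the distal small intestine.

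All values below are log2 intensities after background correction and quantile normalization, and they were compared within a probe and not between probes. A difference was called when limma, fitted to all 25527 probes and 45 arrays, gave an adjusted p under 0.05 together with a fold change over 1.3 in either direction. The presence of enterocytes was checked with a list of markers. Of 12 listed markers 6 were matched (VIL1, ANPEP, SLC15A1, CDX1, CDX2 and EPCAM), all 6 were well above background on every array, and their mean lay between 15.01 and 15.31 on each of the 45 arrays. In this mean VIL1 and ANPEP were at the upper limit of the scanner on all 45 arrays, CDX2 on 35 and EPCAM on 17. The narrow range therefore does not measure the share of enterocytes. In whole tissue, fewer cells of a type and less RNA per cell cannot be told apart.

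The first property of these probes was their brightness. Of the 16 probes, 6 were saturated on at least some arrays, which means that the scanner reached its upper limit and that a higher level could not be recorded. The APOA1 probes A_87_P059426 and A_87_P189158 were saturated on all 45 arrays and could not show any change. APOA4 was saturated on 36 arrays, FABP2 on 35, FABP1 on 30 and the remaining APOA1 probe (A_87_P088151) on 26. The 7 APOB probes, the 2 MTTP probes and the FABP5 probe were saturated on none of the 45 arrays, and the comparisons below rest on these 10 probes. The brightest APOB probe (A_87_P009392) came close to the limit in line Y on day 0, where its raw intensity had a median of 61658 and a maximum of 64353.5.

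APOB was lower on day 16 than on day 4 on all 7 probes in both lines, and this was called on all 7 in line Y and on 4 of the 7 in line X. In line Y the probe A_87_P009392 had a lowest, median and highest value of 15.22, 15.42 and 15.64 on day 0, of 14.64, 14.86 and 15.40 on day 4, and of 13.17, 13.60 and 13.81 on day 16. In line X the same probe had 14.79, 15.03 and 15.41 on day 0, 14.34, 14.62 and 14.95 on day 4, and 13.46, 13.91 and 14.32 on day 16. Thus in both lines every array of day 16 lay below every array of day 4, whereas the arrays of day 4 and day 0 overlapped. The fall between day 16 and day 4 was −1.34 ± 0.12 (SE) in line Y, a 2.53-fold lower level (adjusted p = 4.12e-12), and −0.70 ± 0.12 in line X, a 1.62-fold lower level (adjusted p = 4.07e-06).

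For the other 6 APOB probes the differences of day 16 minus day 4 in line Y lay between −1.16 and −1.61, and for each of the 7 probes all arrays of day 16 lay below all arrays of day 4. In line X the differences lay between −0.28 and −1.07, and 4 of the 7 probes were called. Over all listed genes, 9 of 16 probes were called between day 16 and day 4 in line Y, all lower, at a background of 30.2 % of all probes called and 16.5 % called lower. These were the 7 APOB probes, the MTTP probe A_87_P022404 and the APOA1 probe A_87_P088151, and probes of 1 gene are not independent. For 8 of the 16, the APOB probes and this APOA1 probe, the arrays of the 2 ages did not overlap, which was so for 14.2 % of all probes. In line X 6 of 16 probes were called, 5 lower and 1 higher, at a background of 34.8 % called, 20.6 % lower and 14.1 % higher, and 2 of 16 had no overlap of the ages, against 16.4 % of all probes. The median of the 10 probes that were never saturated, 7 of them APOB, was −1.27 in line Y and −0.34 in line X. The medians over all probes tested were −0.05 and −0.07. Smooth muscle markers (4 of 8 listed were matched) moved in the same direction, with all 4 lower on day 16 in both lines and medians of −0.57 in line Y and −1.07 in line X, as did the erythrocyte markers, with all 4 lower in both lines and medians of −2 in line Y and −2.14 in line X, while all 4 leukocyte markers that passed the filter were higher. Of the 6 enterocyte markers 1 was called higher in line Y and none was called in line X, with median differences of −0.04 in line Y and −0.13 in line X. VIL1, CDX2 and EPCAM were saturated on 45, 35 and 17 arrays, which limits the change that these medians could show. The same limit holds for ACTG2 among the smooth muscle markers, saturated on 14 arrays. It also holds for the erythrocyte markers HBAD and HBBA, saturated on 12 and 15 arrays. The part of these cell types in the APOB values was not tested.

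**Figure D1:**
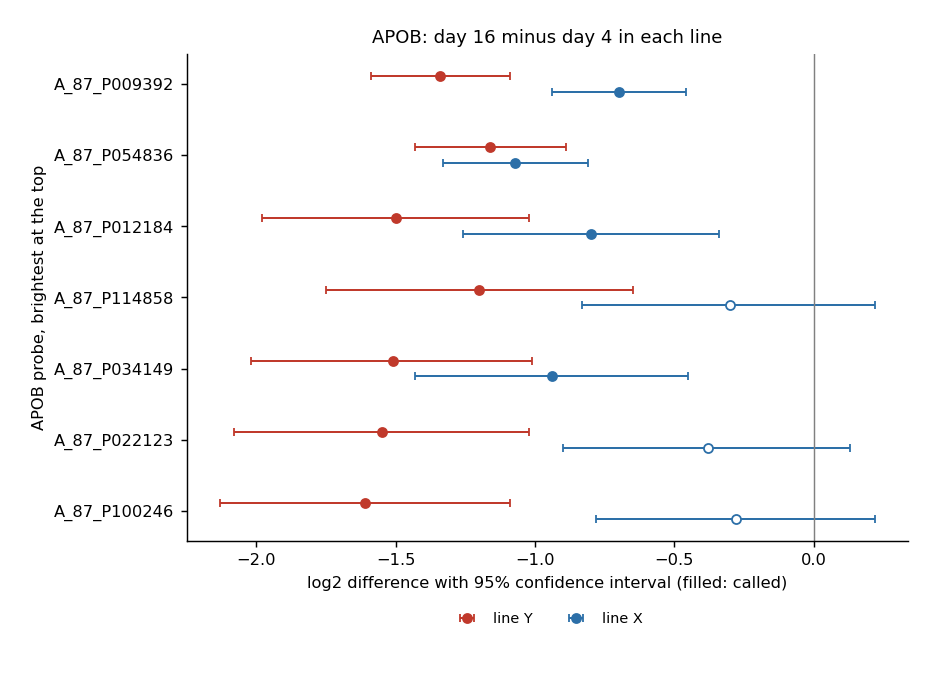
Difference in log2 intensity of day 16 minus day 4 for each of the 7 APOB probes, brightest at the top, in line Y (red) and line X (blue). Points are limma estimates with 95% confidence intervals and filled points were called. All 7 estimates were negative in both lines, and 7 were called in line Y against 4 in line X.

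Between day 4 and day 0 the APOB probes did not move together. A_87_P009392 was lower on day 4 in both lines, with a difference of −0.51 ± 0.13 in line Y (adjusted p = 0.00076) and of −0.46 ± 0.12 in line X (adjusted p = 0.00117). A_87_P054836, the second brightest probe, was called lower in line Y (−0.50, adjusted p = 0.00215) and had a difference of −0.17 in line X (adjusted p = 0.258). In contrast, none of the other 5 probes was called by limma in line Y, where their differences ran between 0.12 and 0.59 and 1 had an unadjusted p under 0.05, and 2 of them were called higher in line X. These were A_87_P022123 (0.76 ± 0.26, adjusted p = 0.011) and A_87_P034149 (0.56 ± 0.25, adjusted p = 0.0472). The first of these calls rested on pool 7 of line X on day 0, where the probe had a value of 8.72 against 9.98 in the next pool, and without this pool 1 probe of the listed genes was called in line X. The second was lost when any of 13 pools was left out, with adjusted p up to 0.109, and without the filter on dim probes (0.0607). In a fit of the compared groups alone A_87_P100246 (0.44, adjusted p = 0.0191) and A_87_P114858 (0.56, adjusted p = 0.00316) were also called higher in line X. Without pool 17 of both lines limma called A_87_P114858 higher in line Y (0.59, adjusted p = 0.0402) and line X (0.56, adjusted p = 0.0382). Over all listed genes 3 of 16 probes were called between day 4 and day 0 in line Y, all lower, at a background of 42.1 % of all probes called and 23.3 % called lower. In line X 3 of 16 were called as well, 2 higher and 1 lower, at a background of 51.9 % called, 26.3 % higher and 25.6 % lower. The split of these calls depended on the scaling. With arrays scaled to the 75th percentile 5 probes were called in line Y, all higher, of which APOA4, FABP2 and 2 APOA1 probes were saturated on every array of both ages and could show no change, and the other was the APOB probe A_87_P114858 (0.67, adjusted p = 0.0383). The fall of A_87_P009392 came to −0.26 (adjusted p = 0.106) and that of A_87_P054836 to −0.30 (adjusted p = 0.0679). In line X 1 probe was then called, and it was higher.

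The split between the 2 brightest APOB probes and the other 5 was also seen within groups. This split was noticed in the values and is given as a description. After each value was set against the mean of its group, the 5 dimmer probes correlated with each other at r between 0.831 and 0.974 over the 45 arrays, and the 2 brightest correlated at r = 0.816. Between the 2 sets r lay between 0.385 and 0.553. These arrays share their slides and their normalization, and the sequences and positions of the probes in the APOB transcript were not available for this comparison.

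The lines were then compared at each age. On day 0 and on day 4 no APOB probe was called by limma, and A_87_P009392 alone had an unadjusted p under 0.05 on each day. A_87_P100246 was called higher in line Y on day 0 (0.52) in a fit of the day 0 arrays alone (adjusted p = 0.0139). It was also called with the pool number as a block (adjusted p = 0.0292), at an age where numbers were not taken as pairing pools. A_87_P009392 averaged 15.43 ± 0.14 in line Y and 15.07 ± 0.23 in line X on day 0 (SD, n = 7 each), a difference of 0.36 (adjusted p = 0.0157) that stayed under the limit on fold. This difference passed the limit and was called when 1 of 3 pools of day 0 was left out, at up to 0.42. On day 4 the difference was 0.31 (adjusted p = 0.0415), again under this limit. On day 16 the sign had turned, with 13.58 ± 0.19 in line Y and 13.91 ± 0.36 in line X (SD, n = 8 each) and a difference of −0.33 (adjusted p = 0.0188, 1.26-fold lower in line Y). The last difference passed the limit on fold when arrays were scaled to the 75th percentile (−0.47) and when pool 17 of both lines was left out (−0.39). The arrays of the lines overlapped at each of these ages.

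On day 16 each of the 5 dimmer APOB probes was called lower in line Y, with differences between −0.62 and −1.30. Of these, A_87_P022123 had a lowest, median and highest value of 8.42, 9.11 and 9.56 in line Y and of 9.12, 10.53 and 11.27 in line X. The probe was 2.46-fold lower in line Y (−1.30 ± 0.25, adjusted p = 4.62e-05). A_87_P114858 had values of 9.48, 10.05 and 10.44 in line Y and of 9.73, 11.49 and 12.26 in line X. Its level was 2.29-fold lower in line Y (−1.20 ± 0.26, adjusted p = 0.000196). For all 7 probes the arrays of the lines overlapped on day 16, because some pools of line X were as low as those of line Y. The call of A_87_P034149 (−0.62, adjusted p = 0.0298) was lost when 1 of 6 pools was left out, and its adjusted p then reached 0.0868. It was also lost in a fit of the day 16 arrays alone (adjusted p = 0.0752).

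**Figure D2:**
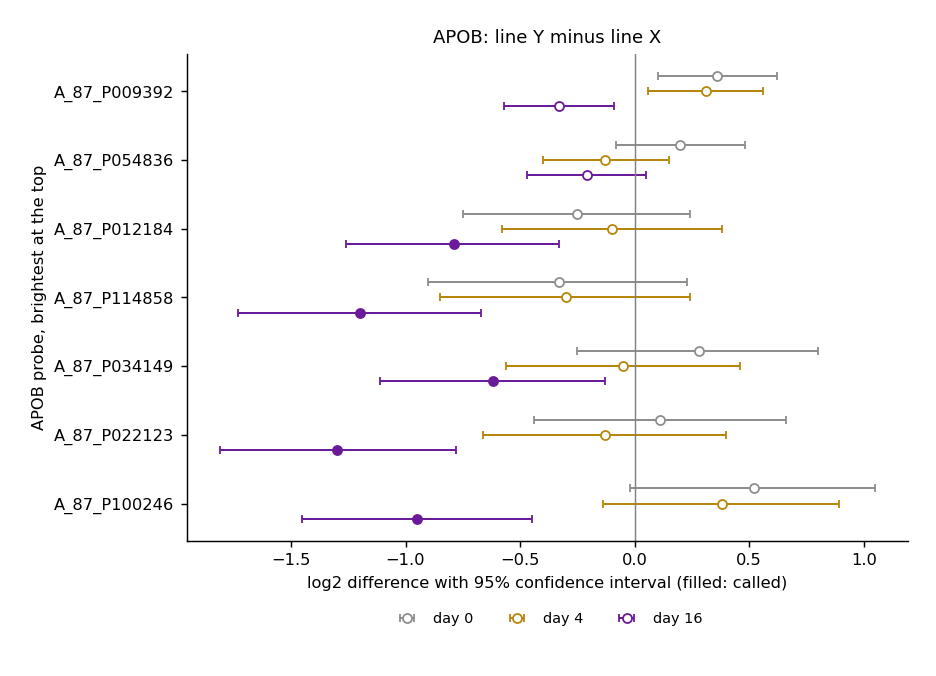
Difference in log2 intensity of line Y minus line X for each of the 7 APOB probes, brightest at the top, on day 0 (grey), day 4 (ochre) and day 16 (purple). Points are limma estimates with 95% confidence intervals and filled points were called. No probe was called on day 0 or day 4, and 5 of 7 were called lower in line Y on day 16.

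Over all listed genes 8 of 16 probes were called lower in line Y on day 16 and none was called higher. These were 5 APOB probes, both MTTP probes and FABP5, and probes of 1 gene are not independent. The count is to be read against a background of 33.6 % of all probes called at this age, 15.5 % in the lower direction. On day 0 the dimmer MTTP probe was the 1 of 16 called lower, at a background of 38.1 % called and 19.1 % lower. It was also the 1 of 16 called lower on day 4, at a background of 23.3 % called and 11.3 % lower. The median difference of the 10 never saturated probes, 7 of them APOB, was 0.16 on day 0, −0.11 on day 4 and −0.71 on day 16. The medians over all probes tested were −0.03, −0.05 and 0.01. The number of called probes on day 16 lay between 6 and 10 when single pools were left out, and it was lowest without pool 20 of line X.

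Whether the line difference itself changed with age was tested as an interaction. Between day 16 and day 4 the line difference of A_87_P009392 changed by −0.64 ± 0.17 (adjusted p = 0.00248), that of A_87_P022123 by −1.17 ± 0.37 (adjusted p = 0.00964) and that of A_87_P100246 by −1.33 ± 0.36 (adjusted p = 0.00264). The remaining 4 APOB probes had changes between −0.09 and −0.89 that were not called. With the pool number as a block 3 of these were called, A_87_P034149 (−0.67, adjusted p = 0.0258), A_87_P012184 (−0.78, adjusted p = 0.00599) and A_87_P114858 (−0.97, adjusted p = 0.0163). The block pairs pools by number on day 16 too, an age at which numbers were not taken as pairing pools. A_87_P114858 was also called with arrays scaled to the 75th percentile (−1.17, adjusted p = 0.0116). Without pool 17 of both lines limma called A_87_P114858 (−1.03, adjusted p = 0.0159) and A_87_P012184 (−0.76, adjusted p = 0.0345). When 1 pool was left out, A_87_P114858 was called in 10 fits, A_87_P012184 in 4 and A_87_P034149 in 1. In the fit without the block 5 of 16 probes were called, both MTTP probes among them. All 5 changed toward a lower level in line Y, at a background of 35 % of all probes and 14.8 % in this direction. Between day 4 and day 0 none of the 16 probes was called by limma in the same test, at a background of 21.7 %, and 0 of the 16 had an unadjusted p under 0.05. With arrays scaled to the 75th percentile 2 probes were called, APOA4 and FABP2, both saturated on every array of these ages.

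The pools of line X on day 16 were spread widely for APOB. The SD of the 7 probes over the 8 pools had a median of 0.33 and a maximum of 0.44 in line Y, and of 0.74 and 0.91 in line X. Pool 17 had the lowest value on 5 of 7 probes in line Y and on 5 of 7 probes in line X. For the 5 dimmer probes it stood −0.71 from the mean of its group in line Y and −1.38 in line X, and for the brighter MTTP probe −1.19 in line Y and −0.71 in line X. The dimmer MTTP probe deviated by −0.21 in line Y and −0.64 in line X, and the 2 brightest APOB probes by −0.03 in line Y and −0.36 in line X. FABP5 did not share this, with deviations of 0.20 in line Y and 0.07 in line X. In both lines pool 17 also had the highest mean of the 4 erythrocyte markers among the 8 pools of its group, and in line Y the highest means of the liver and pancreas markers (9.42 and 8.60). The part of these cell types in the low APOB and MTTP values was not tested. Without pool 17 of both lines 9 of 16 probes were called between the lines on day 16, against 8 with it.

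**Figure D3:**
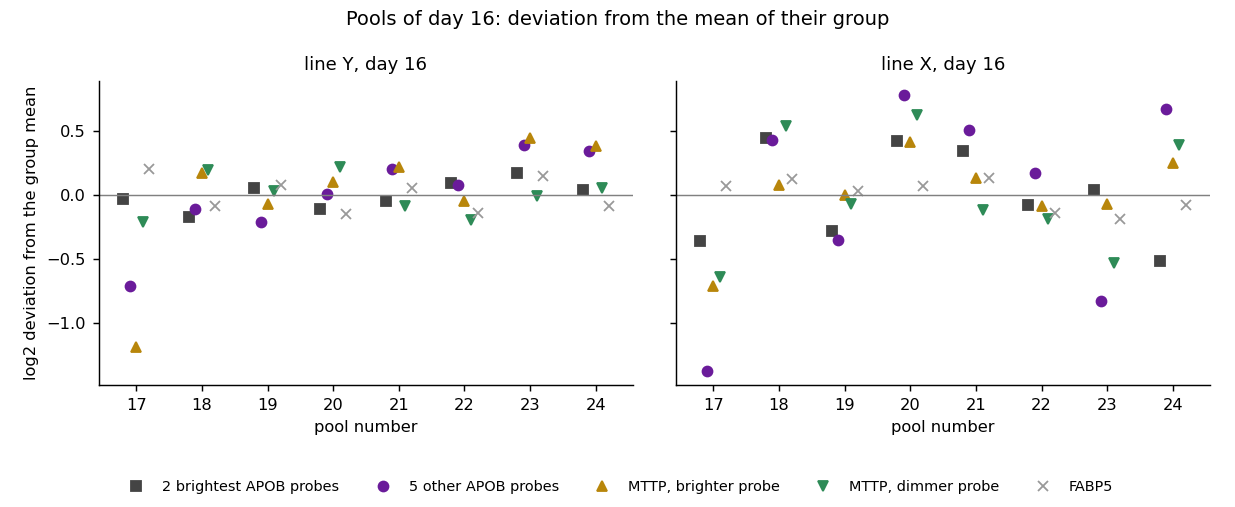
Deviation of each pool from the mean of its group on day 16 in log2 units, for line Y (left) and line X (right), for the 2 brightest APOB probes, the 5 other APOB probes (each as a mean), both MTTP probes and FABP5. Pool 17 stood at −0.71 in line Y and −1.38 in line X for the 5 other APOB probes, while FABP5 stayed within 0.20 of the group mean in line Y and 0.19 in line X.

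MTTP, which loads lipid on to APOB, was measured by 2 probes that differed in what they showed. The dimmer probe A_87_P022404 was lower in line Y at every age. Its lowest, median and highest values were 8.87, 9.31 and 9.91 in line Y and 9.58, 10.08 and 10.48 in line X on day 0. On day 4 they were 9.11, 9.42 and 9.90 in line Y and 9.86, 10.14 and 10.38 in line X. On day 16 they were 8.87, 9.08 and 9.30 in line Y and 10.03, 10.57 and 11.28 in line X. The arrays of the lines overlapped on day 0 and, by 1 array of line Y, on day 4, and on day 16 all 8 arrays of line Y lay below all 8 of line X. Differences were −0.79 ± 0.16 on day 0 (adjusted p = 8.96e-05), −0.67 ± 0.16 on day 4 (adjusted p = 0.00078) and −1.59 ± 0.15 on day 16 (adjusted p = 2.67e-11), the last a 3.01-fold lower level in line Y.

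The brighter MTTP probe A_87_P054551 was not called between the lines on day 0 (0.24, adjusted p = 0.223) or on day 4 (0.17, adjusted p = 0.416). With the pool number as a block its difference on day 4 was 0.24 (adjusted p = 0.0453), under the limit on fold. On day 0, where numbers were not taken as pairing pools, the block also gave 0.24 (adjusted p = 0.0372). On day 16 the values of this probe were 10.86, 12.19 and 12.49 in line Y and 11.76, 12.51 and 12.88 in line X. The difference of −0.42 ± 0.15 was called (adjusted p = 0.0213, 1.34-fold lower in line Y), with overlapping arrays. It rested in part on pool 17 of line Y, whose value of 10.86 stood apart from the next pool at 11.98, and without pool 17 of both lines the difference was −0.35 (adjusted p = 0.0102), under the limit on fold. The call was also lost without pool 20 of line X (adjusted p up to 0.0937 when either pool was left out) and in a fit of the day 16 arrays alone (0.0998). The methods and labels do not say which part of the transcript each probe binds, and within groups the probes correlated at r = 0.61 over the 45 arrays.

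Over time the MTTP probes differed between the lines. The dimmer probe was higher on day 16 than on day 4 in line X (0.53 ± 0.15, adjusted p = 0.00346), and was the only one of the 16 probes called higher between these ages in either line, except that scaling to the 75th percentile added the 2 APOA1 probes saturated on all arrays in line X. In line Y it was called lower (−0.38 ± 0.16, adjusted p = 0.0474), a call that was lost in 20 of the 45 fits that left out 1 pool. The change of the line difference between day 16 and day 4 was −0.92 ± 0.22 for this probe (adjusted p = 0.000958) and −0.59 ± 0.22 for the brighter probe (adjusted p = 0.03). The call of the brighter probe was lost without pool 17 of line Y, without pool 20 of line X on day 16, and without pool 11 of line Y or pool 9 of line X on day 4, with adjusted p up to 0.0592, and in a fit of the day 4 and day 16 arrays alone (0.0605). Neither probe was called between day 4 and day 0 in either line, with differences between −0.03 and 0.12.

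FABP5, a fatty acid binding protein of epithelia that is also found outside the intestine, was lower in line Y than in line X, by a small margin at each age. Its lowest, median and highest values were 11.70, 12.04 and 12.29 in line Y and 12.21, 12.37 and 12.52 in line X on day 0, with overlap of the lines. On day 4 they were 11.23, 11.67 and 11.90 in line Y and 11.72, 12.01 and 12.23 in line X, again with overlap. On day 16 all 8 arrays of line Y (11.17, 11.30 and 11.51) lay below all 8 of line X (11.69, 11.93 and 12.01). The difference was −0.33 ± 0.09 on day 0 (adjusted p = 0.00225) and −0.36 ± 0.09 on day 4 (adjusted p = 0.00131), both under the limit on fold. That of day 4 was called with arrays scaled to the 75th percentile (−0.39, adjusted p = 0.000819). It was also called when 1 of 4 pools of day 4 was left out. On day 16 the difference came to −0.57 ± 0.09 (adjusted p = 5.21e-07), a called 1.48-fold lower level. Together with the dimmer MTTP probe this made 2 of 16 probes whose lines did not overlap on day 16, at a background of 12.7 % of all probes.

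FABP5 was also lower on day 4 than on day 0, with a difference of −0.39 ± 0.09 in line Y (adjusted p = 0.000329, called) and of −0.37 ± 0.09 in line X (adjusted p = 0.000359, under the limit on fold). The call in line Y was lost without pool 2, 3 or 7 of day 0 or pool 10 of day 4, where the difference came under the limit on fold and the adjusted p stayed at or under 0.00191. It was also lost with arrays scaled to the 75th percentile (−0.37). Between day 16 and day 4 the difference was −0.32 in line Y (adjusted p = 0.00301) and −0.11 in line X (adjusted p = 0.3), and neither was called. The line difference of FABP5 was not called as changing between day 16 and day 4 (−0.21, 95% confidence interval −0.46 to 0.04, adjusted p = 0.168).

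**Figure D4:**
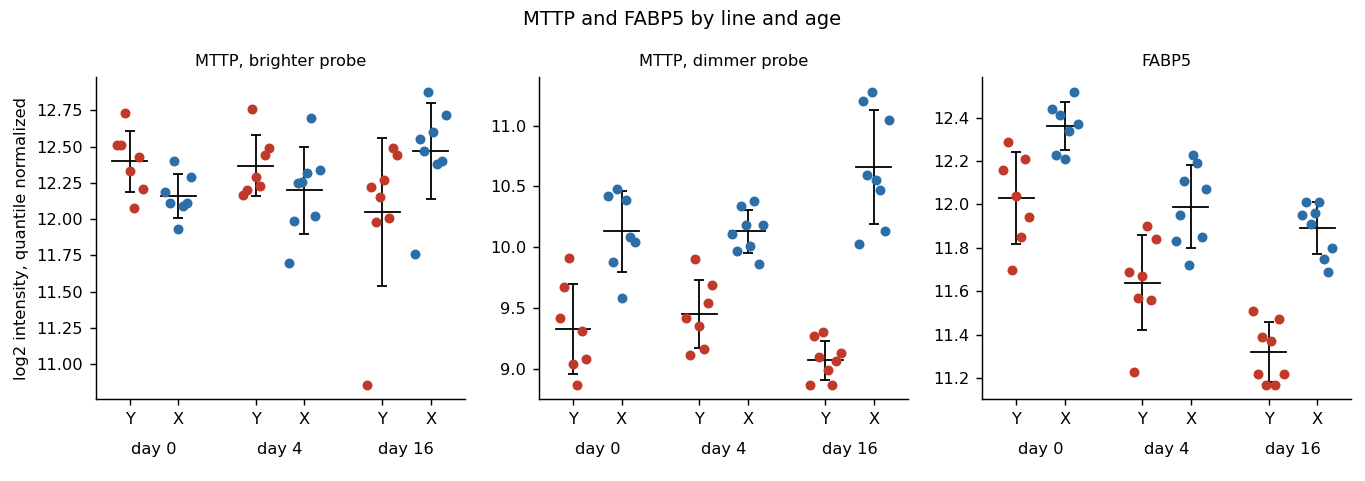
Log2 intensity of the MTTP probes A_87_P054551 (left) and A_87_P022404 (middle) and of FABP5 (right) in every pool, with line Y (red) left of line X (blue) at each age. Horizontal bars are group means, vertical bars SD (n = 7 or 8). On day 16 the lines do not overlap for the dimmer MTTP probe and FABP5.

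The saturated probes gave values only where single pools came below the limit of the scanner. Arrays differed in brightness, with a median raw intensity between 196 and 260 in line Y on day 0 against 139 to 172 in line X, and between 109.5 and 181.5 in line Y on day 16 against 78 to 169 in line X. The number of saturated spots of a probe can depend on both the level of its gene and this brightness, and how much each contributed was not tested.

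FABP1 (liver type fatty acid binding protein) and FABP2 (intestinal type) are the main fatty acid carriers inside the enterocyte. FABP1 was saturated on all 7 arrays of line Y on day 0, on 5 of 7 on day 4 and on 1 of 8 on day 16, and on 4 of 7, 7 of 8 and 6 of 8 arrays of line X. Pool 21 of line Y on day 16 had the lowest value, 12.59, with a raw intensity of 4929.5, against 15.11 in the next pool of this group. Other pools below 15 were pool 10 of line Y on day 4 (14.18), pool 9 of line X on day 4 (14) and pools 2 and 4 of line X on day 0 (14.34 and 14.82). These low pools occurred in both lines and at each age, and no comparison of FABP1 was called (adjusted p between 0.113 and 0.78 over the 9 comparisons). Between the lines on day 16 its difference was −0.63, with a 95% confidence interval of −1.30 to 0.05 that treats saturated spots as measured. With arrays scaled to the 75th percentile this difference was −0.98 and was called (adjusted p = 0.025).

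FABP2 was saturated on every array of day 0 and day 4 in both lines. On day 16 it was saturated on 5 of 8 arrays of line Y and on 1 of 8 arrays of line X. Values on day 16 ran between 15.78 and 16.00 in line Y and between 15.29 and 16.00 in line X. The difference of 0.26 ± 0.06 (adjusted p = 0.000792) stayed under the limit on fold and was not called. This value takes saturated spots as measured, so that the size of the difference is not known. On day 0, where every spot was saturated, no difference could be measured, and scaling to the 75th percentile gave a value of −0.62 to spots that were all at the limit. In line X the value of day 16 was −0.30 from that of day 4 (adjusted p = 0.000122), also under the limit on fold. The level of day 4 was beyond the limit of the scanner on all 8 arrays and that of day 16 on 1. This fall was not seen after scaling to the 75th percentile, where the means in line X were 5.99 on day 4 and 6.12 on day 16. The scaled mean of line Y on day 16 was 6.2.

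The dimmest APOA1 probe came below the limit mainly on day 16. It was saturated on 0 of 8 arrays of line Y and 1 of 8 arrays of line X on day 16, against 5 of 7 and 7 of 8 on day 4 and 7 of 7 and 6 of 7 on day 0. In line Y its values ran between 14.27 and 15.57 on day 16 and between 15.78 and 15.99 on day 4, without overlap. The level of day 16 was estimated as 1.96-fold lower (−0.97 ± 0.16, adjusted p = 2.4e-06), with saturated spots taken as measured. The size of this fall is therefore not known. In line X this probe ran between 14.53 and 16.00 on day 16 and between 15.81 and 16.00 on day 4, with overlap. The difference in line X was −0.66 ± 0.15 (adjusted p = 0.000337). Both differences were called, but that of line X came to −0.28 (adjusted p = 0.233) when arrays were scaled to the 75th percentile. The lines differed on day 16 by −0.37 ± 0.15 (adjusted p = 0.0402), 1.29-fold lower in line Y and under the limit on fold, which it passed after scaling to the 75th percentile (−0.66) and without pool 17 of both lines (−0.45). APOA4 was saturated on every array of day 0 and day 4. On day 16 it was saturated on 3 of 8 arrays of line Y, with values of 15.40 to 16.00, and on 4 of 8 arrays of line X, with values of 15.28 to 16.00, and the difference of 0.11 was not called (adjusted p = 0.301).

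**Figure D5:**
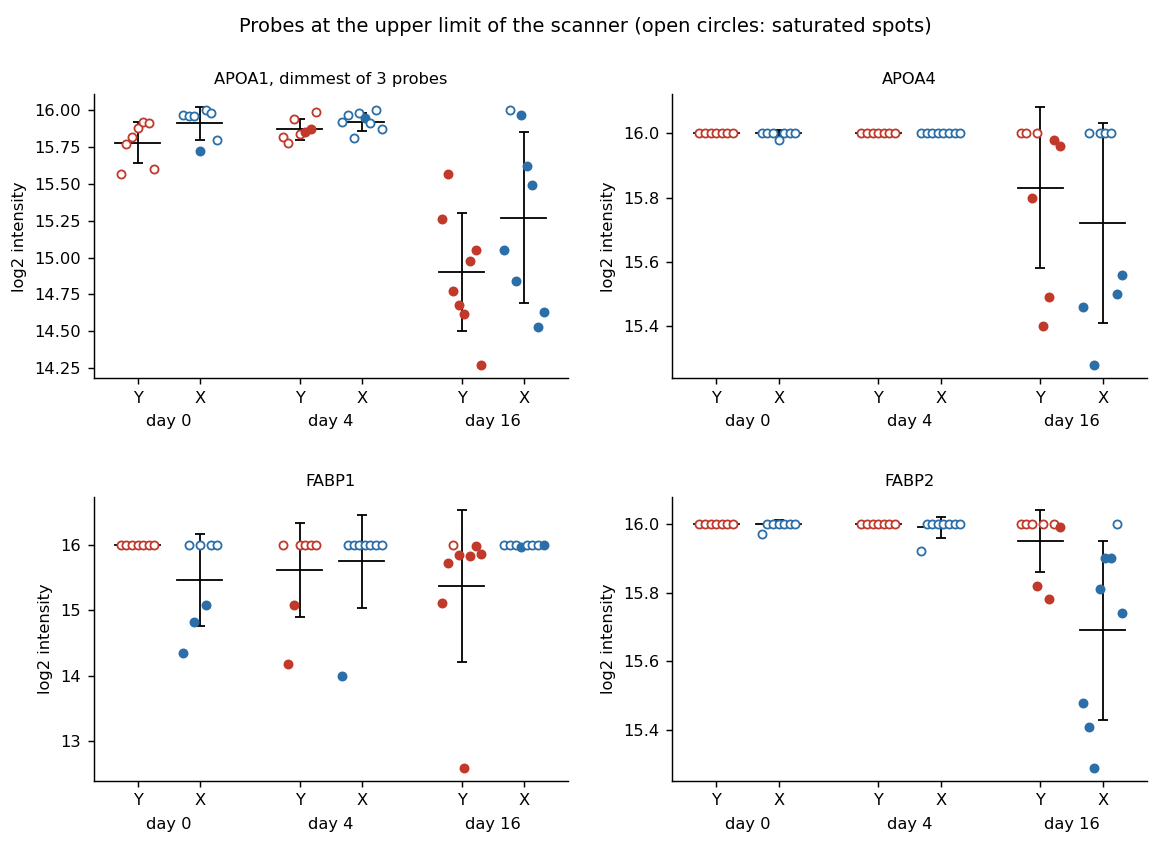
Log2 intensity of the dimmest APOA1 probe, APOA4, FABP1 and FABP2 in every pool, with line Y (red) left of line X (blue) at each age. Open circles are saturated spots, horizontal bars group means and vertical bars SD (n = 7 or 8). FABP2 was saturated on 5 of 8 arrays of line Y and 1 of 8 arrays of line X on day 16, and FABP1 had a low value of 12.59 in pool 21 of line Y.

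Further genes of fat uptake and lipoprotein assembly were taken from a list of 70 genes, of which 25 were matched to a probe and 20 passed the filter. Between the lines 9 of the 20 were called on day 0 (2 higher and 7 lower in line Y), 1 on day 4 (lower) and 6 on day 16 (3 higher and 3 lower). These are 45 %, 5 % and 30 % of the 20 genes, beside 38.1 %, 23.3 % and 33.6 % of all probes. As a median the 20 genes differed by −0.29 on day 0, −0.04 on day 4 and 0.15 on day 16, beside −0.03, −0.05 and 0.01 over all probes. On day 0 CD36, a fatty acid receptor of the cell surface, averaged 12.59 ± 0.39 in line Y and 13.43 ± 0.21 in line X (SD, n = 7 each, difference −0.85, adjusted p = 0.000201). HNF4A, a transcription factor of the enterocyte, averaged 9.26 ± 0.38 in line Y and 8.52 ± 0.44 in line X on day 0 (0.75, adjusted p = 0.00285). On day 16 PPARA, a nuclear receptor that responds to fatty acids, averaged 10.43 ± 0.31 in line Y and 11.33 ± 0.21 in line X (SD, n = 8 each, −0.90, adjusted p = 1.96e-08). PLTP, the phospholipid transfer protein, was higher in line Y at this age (8.13 ± 0.18 in line Y and 7.34 ± 0.24 in line X, 0.80, adjusted p = 3.49e-07). SAR1B, the GTPase that starts the vesicles in which lipoproteins leave the endoplasmic reticulum, was lower in line Y on day 16 (−0.38, adjusted p = 0.00752) and was named after its value was seen.

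Over time 10 of these 20 genes were called between day 4 and day 0 in line Y (4 higher and 6 lower) and 10 in line X (4 higher and 6 lower). The share of 50 % in each line lay near that of all probes, which was 42.1 % in line Y and 51.9 % in line X. CD36 fell in both lines, with a difference of −1.30 ± 0.19 in line Y (adjusted p = 1.19e-07) and of −2.17 ± 0.18 in line X (adjusted p = 7.01e-14). ACSL5, which activates fatty acids, fell as well (−0.99 in line Y and −0.81 in line X), whereas PPARD, another nuclear receptor for fatty acids, rose (1.05 in line Y and 0.98 in line X). PLIN1, a protein of lipid droplets that is also in the adipocyte list, rose by 3.24 ± 0.23 in line Y and 2.55 ± 0.22 in line X. Between day 16 and day 4 7 genes were called in line Y (2 higher and 5 lower) and 2 in line X, HNF4A and CD36, both lower, at shares of 30.2 % and 34.8 % of all probes. The line difference changed between day 4 and day 0 for 6 of the 20 genes, among them HNF4A (−1.08, adjusted p = 0.0064) and CD36 (0.87, adjusted p = 0.0127), and between day 16 and day 4 for 6, among them PLTP (1.12, adjusted p = 1.03e-06) and PPARA (−0.84, adjusted p = 7.59e-05). Both counts are 30 % of the 20 genes, where 21.7 % and 35 % of all probes were called.

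Other members of the fatty acid binding family and bile acid genes came from a list of 11 genes, of which 4 were matched and kept. In contrast to FABP5, the 3 further binding proteins rose after hatch in both lines. FABP3, the heart type, lay between 12.39 and 13.10 on day 4 and between 9.21 and 9.76 on day 0 in line Y, and between 12.37 and 12.82 on day 4 and between 9.18 and 9.62 on day 0 in line X. The rise was 3.31 ± 0.09 in line Y (adjusted p = 2.46e-29) and 3.12 ± 0.09 in line X (adjusted p = 6.2e-29). The rise in line Y is not independent of the age label of its day 0 pools, beside which the same values were set above. FABP4, the adipocyte type, rose by 3.84 ± 0.25 in line Y and 2.21 ± 0.24 in line X, and its line difference changed by 1.63 ± 0.35 (adjusted p = 0.000937), with a value of −0.98 on day 0 and 0.65 on day 4. FABP7, the brain type, rose by 0.83 in line Y and 1.02 in line X, and again between day 16 and day 4, by 0.61 in line Y and 1.03 in line X. FABP4 and PLIN1 are 2 of the 3 matched adipocyte markers, and the third, ADIPOQ, had means of 11.76 on day 4 and 11.22 on day 0 in line Y and of 11.66 and 11.72 in line X. The part of adipose tissue attached to the jejunum in these rises was not tested.

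FGF19, the hormone that enterocytes release when bile acids return, averaged 9.16 ± 0.75 in line Y and 7.33 ± 0.61 in line X on day 0 (SD, n = 7 each). It was thus higher in line Y by 1.83 ± 0.28 (adjusted p = 5.05e-07) with overlapping arrays, and no difference was called on day 4 or day 16. In line X it rose between day 4 and day 0, by 1.85 ± 0.27 (adjusted p = 9.58e-08), and the line difference changed by −1.51 ± 0.39 (adjusted p = 0.00399). FABP6, which binds bile acids in the ileum, was not matched.

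Since RBP2 had no matched probe, retinol handling was followed through a list of 26 genes, of which 11 were matched and 8 kept. Between day 4 and day 0 4 of the 8 were called lower in line Y and 6 in line X, where 23.3 % and 25.6 % of all probes were called lower. Between day 16 and day 4 5 of the 8 were lower in line Y and 4 in line X, where 16.5 % and 20.6 % of all probes were lower. TTR, a carrier of thyroid hormone and of the retinol binding protein that is also in the liver list, had medians of 11.33, 9.16 and 6.41 at days 0, 4 and 16 in line Y and of 11.38, 8.06 and 6.32 in line X. ALDH1A1, which makes retinoic acid from retinal, fell between day 4 and day 0, with differences of −1.82 ± 0.14 in line Y and −1.85 ± 0.14 in line X. The other 6 matched liver markers did not share 1 course. On day 16, against day 0, the means were 4.62 and 6.33 in line Y and 4.82 and 6.88 in line X for FGA, and 4.76 and 5.44 in line Y and 4.96 and 6.75 in line X for FGB. FGG had 9.49 and 4.02 in line Y and 9.46 and 4.71 in line X, and TF had 9.81 and 8.14 in line Y and 10.15 and 8.95 in line X. F2 had 10.51 and 11.92 in line Y and 10.61 and 9.69 in line X, and ALB had 7.83 and 6.63 in line Y and 7.03 and 7.99 in line X. The part of liver RNA in the TTR values was not tested. Between the lines 1 of the 8 retinol genes was called higher in line Y on each day, and 1 lower on day 0 and on day 16. The shares called were 25 %, 12.5 % and 25 %, beside 38.1 %, 23.3 % and 33.6 % of all probes. RDH5, a retinol dehydrogenase, was higher in line Y at all ages (0.50 on day 0, 0.64 on day 4 and 1.20 on day 16). On day 16 all its arrays of line Y (7.92 to 8.76) lay above all arrays of line X (6.74 to 7.59). The lines did not overlap for 12.7 % of all probes at this age. ALDH1A1 was lower in line Y on day 0 (−0.38, adjusted p = 0.0247) and on day 16 (−0.68, adjusted p = 5.65e-05).

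Markers of other cell types were also compared between the lines. Over all probes 38.1 % were called on day 0, 23.3 % on day 4 and 33.6 % on day 16. With so few markers in each list the counts are a description. On day 0 all 4 erythrocyte markers were called higher in line Y (median 0.84), 1 of 4 smooth muscle markers was higher, 2 of 4 leukocyte markers and 2 of 3 adipocyte markers were lower, and 2 of 6 enterocyte markers were higher. Of the 5 liver markers that passed the filter 1 was higher and 1 lower at this age. On day 4 2 of 4 smooth muscle markers were higher in line Y, and of 4 leukocyte markers 1 was higher and 1 lower. Of the 3 adipocyte and the 5 liver markers 1 each was higher on day 4. On day 16 all 4 smooth muscle markers were called higher in line Y (median 0.55, per array between 13.49 and 14.11 in line Y and between 12.83 and 13.66 in line X). Erythrocyte markers were higher in line Y at this age for 2 of 4 genes, adipocyte markers higher for 1 of 3, and leukocyte markers lower for 2 of 4. The 6 enterocyte markers had median differences between the lines of 0.16 on day 0, −0.03 on day 4 and 0.01 on day 16. Of their probes, that of VIL1 was saturated on all arrays and those of CDX2 and EPCAM on 35 and 17 arrays. ANPEP entered these medians by the probe saturated on the fewest arrays, which is not the probe in the means per array. The part of the cell makeup in the line differences was not tested.

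The genes whose probes followed the listed genes most closely over the 45 arrays were taken from 3739 genes with a name. APOB was followed by SLC34A2, a phosphate transporter (r = 0.925), PPY, pancreatic polypeptide (r = 0.92), and CYP2C23a (r = 0.914). When group means were removed these were 0.485, 0.182 and 0.502, so that the likeness lay mostly in the means of the 6 groups. MTTP was followed by HDLBP, an RNA binding protein also known as vigilin (r = 0.757), PPM1M (r = 0.745) and ABCD3, a fatty acid transporter of the peroxisome (r = 0.742), and here the likeness was kept within groups (0.729, 0.709 and 0.808). FABP5 was followed by MMADHC (r = 0.872), PUM2 (r = 0.868) and TMEM5 (r = 0.867), which came to 0.303, 0.401 and 0.202 when group means were removed. For FABP1, with 30 saturated arrays, the first was RAD51D (r = 0.847, and 0.859 within groups). For APOA4 they were SST1, ANO5 and GLUL (r between 0.705 and 0.715) and for FABP2 RGL1, ATP2A2 and WSCD1 (r between 0.735 and 0.767), both from probes that were saturated on many arrays.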

How the data were processed

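Whole jejunum of chicken lines Y and X was measured on 45 one-colour arrays, with 1 pool of 10 birds per array. The authors deposited scanner intensities of each spot and its local background, not normalized, and a table of log2 values that they had made with limma in R 3.0.2 (per the submitters' processing notes) by normexp background correction (offset 1), quantile normalization and averaging of duplicate probes. These log2 values were recomputed with limma 3.58.1 in R 4.3.3, on median foreground and median local background, starting from the deposited intensities, and differed from the deposited values by at most 5e-09. The scanner software's flags for saturated and well above background spots were used as deposited.

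A probe was kept when it exceeded 1.1 times the log2 value of the highest dark corner spot of the array on every array of 1 or more groups. This corner spot had a median of 5.37 and a maximum of 9.73, in pool 12 of line X on day 4. The number of arrays limits the precision. Arrays of a group correlated at r between 0.973 and 0.994, and no 2 arrays were identical. Probes were named through RefSeq accessions with a table of assembly GRCg7b (10458 probes, 4655 genes). Accessions were matched without their version, and no coordinate was used.

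A single limma model (lmFit, eBayes) held all 6 groups, with Benjamini-Hochberg adjusted p over all 25527 kept probes. Nothing in the labels says more of the pools than their number, so p-values measure the spread between pools. The fit was checked on simulated data. The members, the gene lists and the marker lists were chosen with earlier results of these data known. Where a gene had several probes, all were given, and for likeness the brightest never saturated probe, or else the probe saturated on the fewest arrays, stood for the gene. The likeness of APOA1 is not reported here. Of other listed genes at most the 4 largest called differences of a comparison were to be named, and exceptions are said. The ileum list (SLC10A2 and FABP6) had no matched probe. Pool numbers are shared by the lines within an age, and the number is also the position on the slide. Deviations of same-numbered pools correlated over 0.1 in 4 of 7 pairs on day 0, in 7 of 7 on day 4 (mean 0.182) and in 3 of 8 on day 16, so that numbers were taken as pairing pools on day 4 alone. Figures were drawn with matplotlib 3.10.9 in Python 3.11.15. Alternatives were another scaling, other filters and limits, a replicate block, a fit of the compared groups alone and leaving out pools, and the closing section gives their effect.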

Additional observations from a re-analysis of the deposited data

Results flagged for a closer look

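Within 65 sets of values (a probe in a group) 9 had a pool far from the others of its group, where chance alone gives about 1 in 20 for a single set. The sets are not independent, since probes of 1 gene moved together within groups and 1 pool can be flagged on several of them. The count of 9 is therefore not a measure of excess over chance. Sets in which saturated spots were as many as the others, or more, were left out. Pool 4 of line Y on day 0 stood apart as the highest of its group on 4 APOB probes, with 12.84 for A_87_P012184 (next pool 12.29), 11.46 for A_87_P034149 (10.80), 9.49 for A_87_P100246 (8.77) and 11.68 for A_87_P114858 (10.75). Pool 17 of line Y on day 16 was low for the APOB probe A_87_P034149 (8.47, next pool 9.23) and for the MTTP probe A_87_P054551 (10.86, next pool 11.98). For the same MTTP probe pool 17 of line X was low too (11.76, next pool 12.38). Pool 7 of line X on day 0 was low for the APOB probe A_87_P022123 (8.72, next pool 9.98). FABP1 had a value of 12.59 in pool 21 of line Y on day 16, with 15.11 in the next pool.

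The difference between the lines changed between day 16 and day 4 for 5 of the 16 probes by limma's interaction term. For APOB the change was −0.64 on A_87_P009392, −1.17 on A_87_P022123 and −1.33 on A_87_P100246. For MTTP it was −0.92 on A_87_P022404 and −0.59 on A_87_P054551.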

How the results depend on the processing

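Values are numbers of called probes among the 16 unless said otherwise. Scaling the processed signal to the 75th percentile gave 6 probes between the lines on day 0 and 2 on day 4, 5 between day 4 and day 0 in line Y and 1 in line X, and 2 for the change of the line difference between these ages. Some uncalled differences of never saturated probes also changed sign under this scaling. An example is MTTP A_87_P054551 on day 0, with a difference of 0.24 and scaled means of 2.52 in line Y and 2.54 in line X. A saturated probe has a constant value that is set against the percentile of its own array. Where a difference was called with or without this scaling, sign changes occurred on saturated probes alone. These were FABP2 (−0.62) and APOA4 (−0.84) between the lines on day 0, FABP2 (0.56) and APOA4 (0.55) between day 4 and day 0 in line Y, APOA1 A_87_P059426 (0.59) between day 16 and day 4 in line X, and APOA4 (0.73) for the change of the line difference between day 4 and day 0. A filter passed on all arrays kept 12 of the probes, so fewer could be called, and gave 0 on day 0, 0 on day 4 and 4 on day 16 between the lines, 5 between day 16 and day 4 in line Y, 1 between day 4 and day 0 in line X, and 2 for the change of the line difference between day 16 and day 4. Without the limit on fold 3 probes were called between the lines on day 0 and 3 on day 4. A fit of the compared groups alone gave 2 on day 0 and 5 between day 4 and day 0 in line X, and the cause was not tested.

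With the pool number as a replicate block 2 probes were called between the lines on day 0 and 8 for the change of the line difference between day 16 and day 4. The block left the number on day 4, the age at which numbers were taken as pairing the pools, at 1. No label states such a pairing, and it cannot be told apart from a shared position on the slide. Leaving out single pools gave 1 to 2 probes on day 0, 1 to 2 on day 4 and 6 to 10 on day 16 between the lines, 2 to 5 (line Y) and 1 to 4 (line X) between day 4 and day 0, 8 to 10 and 6 between day 16 and day 4, and 0 and 4 to 8 for the changes of the line difference. A normexp offset of 50 and leaving out pool 17 of both lines, both chosen after seeing the data, kept all 9 counts within 1.5 times. The planned normexp setting on mean foreground was not run, since mean foreground was not among the columns used here. Saturation limits 6 of the 16 probes, and each slide held 1 group.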
